A study of Mus musculus with 12 samples.

Results

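The Src and Syk families of cytoplasmic tyrosine kinases were followed in pre-selection CD4+CD8+ thymocytes of Bcl11b mutant mice. The members were taken by gene symbol as a family, with earlier results of these data known: Lck, Fyn and Zap70, which serve the T cell receptor, Lyn, Blk, Fgr and Syk, which serve B cell and myeloid receptors, and Src and Yes1, which are broadly expressed. All 9 were found among the 23234 features of the expression table. Of these, 7 had a mean of at least 1 FPKM (fragments per kilobase of transcript scaled to the mapped fragments of the library) over the 12 libraries and were among the 10780 features tested, whereas Src and Yes1 lay under that level.

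Antigen receptors have no enzymatic activity of their own. A Src family kinase phosphorylates the tyrosines of the receptor-associated ITAM motifs, and a kinase of the Syk family then docks there and passes the signal on to adaptors and phospholipases. T cells rely mainly on Lck, Fyn and Zap70, while B cells and myeloid cells use Syk with other Src family members, such as Lyn. Early thymocytes still hold Syk, which is largely replaced by Zap70 as T cells mature. Bcl11b is a zinc finger transcription factor needed for commitment to the T lineage.

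RNA was sequenced from cells labelled as CD24hiTCRblo pre-selection thymocytes of C57BL/6 mice in 3 groups. The labels' extraction text describes another cell population than the study's methods, so the identity of the cells is in part uncertain. The wild-type group held 5 newborn libraries. The Bcl11bm/m group held 3 newborn libraries homozygous for an allele whose frameshift yields a truncated protein without the last zinc finger, and this germline allele acts in all cells from the earliest stage. The Bcl11bfl/fl:Cd4-Cre group, called cKO hereafter as in the sample titles, held 4 libraries in which a floxed Bcl11b was deleted by Cre under control of Cd4, that is from the CD4+CD8+ stage on. The age of the last group is not stated in the labels, so age and genotype cannot be told apart in a comparison with it. Titles set the groups: the free-text descriptions give the wild-type libraries as Bcl11bm/m and the cKO libraries as Bcl11b+/+. The direction of every difference between groups therefore rests on the titles. Bcl11b itself ranged from 132 to 292 FPKM in wild-type, from 430 to 482 in Bcl11bm/m and from 115 to 140 in cKO libraries. These values cover the whole gene and check neither the frameshift nor the deleted part. Depth, estimated from the steps between low FPKM values, was 3890000 to 6800000 fragments in wild-type, 2660000 to 4160000 in Bcl11bm/m and 10710000 to 44800000 in cKO libraries. Nothing in the labels assigns the libraries to individual animals, so p-values measure the spread between these libraries only. As markers of the labelled cell type, Rag1 lay between 438 and 1564 FPKM and Cd8a between 591 and 1054 FPKM in all 12 libraries. Cd24a, which encodes the sorting marker CD24, fell by 1.15 on the log2 scale in Bcl11bm/m (SE 0.19, adjusted p = 0.0042 by limma), and the difference of cKO from wild-type libraries was -1.155 (SE 0.18, adjusted p = 0.0052 by limma).

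Lck was the most abundant member in every group. FPKM values are per transcript length and can be set side by side between genes. In wild-type thymocytes the mean level fell from Lck (781 ± 111 FPKM, SD, n = 5) through Zap70 (75.5 ± 15.5), Fyn (38.0 ± 3.40), Syk (12.2 ± 1.19), Fgr (5.24 ± 2.04) and Lyn (1.19 ± 1.05) to Src (0.191 ± 0.088), Yes1 (0.150 ± 0.124) and Blk (0.092 ± 0.061). Each of the first 6 stood above the next in 5 of 5 libraries, while Src was above Yes1 in 3 of 5. In Bcl11bm/m cells Syk (26.2 ± 3.40, n = 3) came close to Fyn (28.7 ± 0.72), which was above it in 2 of 3 libraries, and Lyn (16.2 ± 3.27) stood above Fgr (10.0 ± 1.37) in 3 of 3. In cKO cells the means of Lyn (3.58 ± 2.05, n = 4) and Blk (3.68 ± 4.35) were close, but single libraries differed, with Blk higher in 2 of 4. Blk stood at 9.91 against 2.15 FPKM of Lyn in replicate 1, and at 0.526 against 6.62 FPKM in replicate 3.

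**Figure D1:**
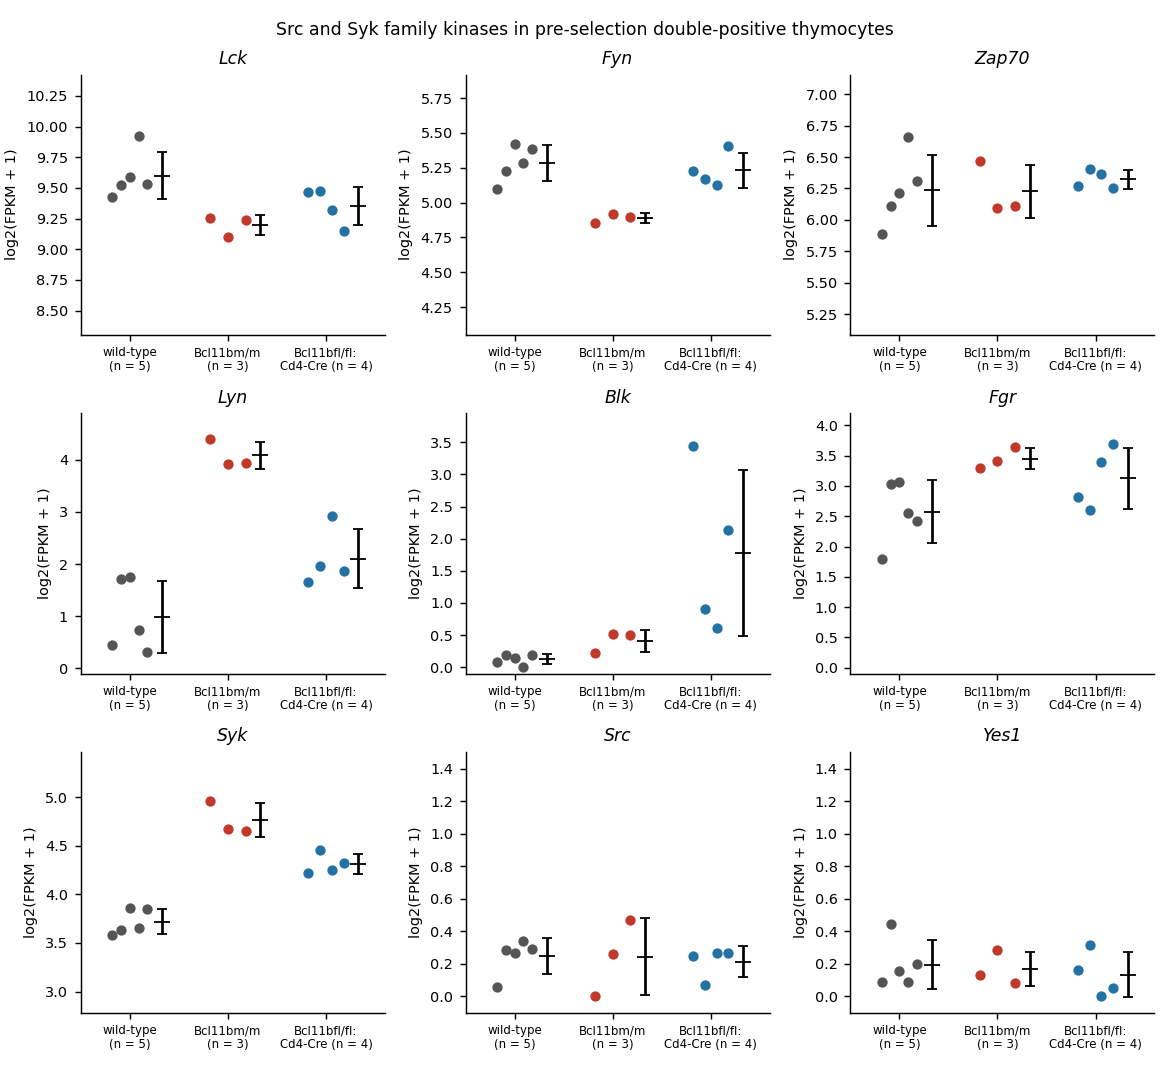
Level of each of the 9 kinases as log2(FPKM + 1) in wild-type (grey), Bcl11bm/m (red) and cKO (blue) libraries, 1 point per library, with the group mean and SD as a bar to the right. The axes differ between panels and those of Lck, Fyn, Zap70 and Syk do not start at 0. The 3 Bcl11bm/m libraries lie above all 5 wild-type libraries for Lyn and Syk and below them for Fyn.

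In Bcl11bm/m thymocytes, Lyn and Syk rose and Fyn fell against wild-type. These 3 calls among 7 tested members stand beside 17.3% of all 10780 features called in this comparison, and the 2 that rose beside 9.92% called higher. The libraries of the groups did not overlap for 6 of the 7 tested members (higher for Lyn, Syk, Fgr and Blk, lower for Lck and Fyn), beside 25.4% of all features. For Blk this rests on 1 to 4 fragments per library in Bcl11bm/m against 0 to 2 in wild-type and is a description. In cKO thymocytes, Syk rose and 0 tested members fell by limma (0 also at an unadjusted p under 0.05), beside 14.5% of features called and 4.65% called higher. Blk was also past the threshold, but it passed the filter on low values only through its level in the cKO libraries, so its call and its separation from wild-type are a description. Syk and Blk were the 2 of 7 members that did not overlap with wild-type, beside 16.1% of features. Both comparisons use the same wild-type libraries and are therefore not independent. When the mutants were compared directly, Lyn and Syk were higher in Bcl11bm/m, 2 of 7 members beside 10.2% of features called and 7.63% called higher. The libraries did not overlap for 4 of 7 members (higher in Bcl11bm/m for Lyn and Syk, lower for Fyn and Blk), beside 26.7% of features. Blk is counted there as a description only, since it passed the filter through cKO alone. The median log2 difference of the 7 members was 0.28, 0.56 and -0.10 in the 3 comparisons in this order, and that of all tested features was -0.02, -0.09 and 0.09. All 3 medians of the members include Blk, which passed the filter only through cKO, and the first, 0.28, is the value of Blk itself. Without Blk they would lie between the values of Zap70 and Fgr. These were -0.01 and 0.88 in Bcl11bm/m against wild-type, 0.09 and 0.56 in cKO against wild-type, and -0.10 and 0.32 directly. In bulk RNA, a change in the number of cells that express a gene and a change in its RNA per cell cannot be told apart.

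**Figure D2:**
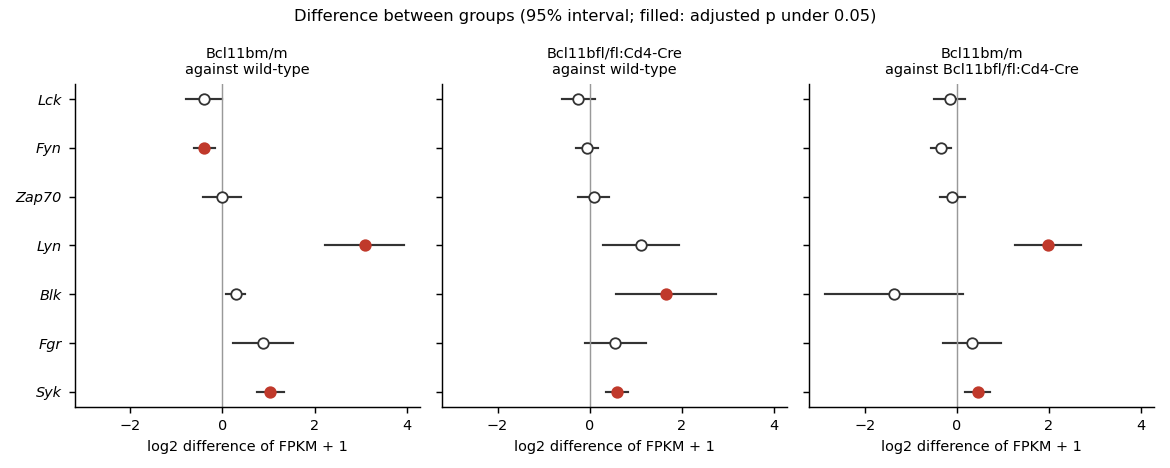
Difference between groups in mean log2(FPKM + 1) for the 7 tested kinases, with 95% intervals from limma. Filled red points have an adjusted p under 0.05. Lyn has the highest difference in both comparisons of Bcl11bm/m, and the interval of Blk, which passed the filter only through cKO, is the widest in the cKO comparisons.

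Among the T cell kinases, Fyn passed the test in Bcl11bm/m, and Lck, with a difference of similar size, and Zap70 did not. Whether Fyn and Lck differed in their change was not tested. Fyn lies at chr10:39088661-39285187 on the plus strand of NCBIM37 (mm9). It acts beside Lck in phosphorylating the receptor chains. Its values were 33.3, 36.4, 41.8, 38.0 and 40.7 FPKM in wild-type, 27.9, 29.3 and 28.8 FPKM in Bcl11bm/m, and 36.5, 34.9, 33.9 and 41.4 FPKM in cKO libraries. The Bcl11bm/m libraries were thus below every other library and close to each other. Fyn fell by 0.39 on the log2 scale in Bcl11bm/m against wild-type (SE 0.10, 95% interval -0.62 to -0.16, adjusted p = 0.031 by limma). The call was lost when any Bcl11bm/m library or wild-type replicate 2, 3 or 5 was left out, with adjusted p of 0.061 to 0.10 and differences of -0.41 to -0.36. The difference of cKO from wild-type was -0.05 (interval -0.29 to 0.19, adjusted p = 0.79), and its sign turned under median-ratio scaling and quantile normalization. Bcl11bm/m against cKO gave -0.34 (SE 0.09, adjusted p = 0.061), and passed with median-ratio scaling (-0.45, adjusted p = 0.031) and with library quality weights (-0.34, adjusted p = 0.026).

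Lck, which binds the CD4 and CD8 coreceptors, lies at chr4:129225588-129250885 on the minus strand (NCBIM37). It was at 687, 734, 771, 971 and 741 FPKM in wild-type, at 611, 549 and 601 FPKM in Bcl11bm/m and at 708, 712, 637 and 567 FPKM in cKO libraries. All 3 Bcl11bm/m libraries were below all wild-type libraries, whereas those of cKO overlapped with them. The difference of Bcl11bm/m from wild-type was -0.40 (SE 0.17, adjusted p = 0.16) and did not pass the test. It passed with median-ratio scaling (-0.41, adjusted p = 0.033) and with library quality weights (-0.38, adjusted p = 0.027). That of cKO was -0.25 (SE 0.16, adjusted p = 0.33).

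Zap70, the Syk family kinase of mature T cells, lies at chr1:36818695-36839663 on the plus strand (NCBIM37). It was at 58.1, 68.0, 73.3, 99.8 and 78.2 FPKM in wild-type, at 87.8, 67.4 and 68.1 FPKM in Bcl11bm/m and at 76.2, 83.7, 81.3 and 75.1 FPKM in cKO libraries. Both mutant groups lay inside the wild-type range. The difference from wild-type was -0.01 in Bcl11bm/m (interval -0.42 to 0.40, adjusted p = 0.99) and 0.09 in cKO (interval -0.24 to 0.42, adjusted p = 0.73), and the sign of the former turned with quantile normalization.

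Syk, the relative of Zap70 that serves B cell and myeloid receptors and the pre-T cell receptor, was the only member called in all 3 comparisons. It lies at chr13:52678542-52744161 on the plus strand of NCBIM37, where the annotation lists it as Sykb (ENSMUSG00000021457.8). Its values were 11.0, 11.4, 13.6, 11.6 and 13.4 FPKM in wild-type, 30.1, 24.5 and 24.1 FPKM in Bcl11bm/m, and 17.6, 20.9, 18.04 and 19.0 FPKM in cKO libraries. The groups formed 3 steps without overlap, wild-type lowest and Bcl11bm/m highest. Syk rose by 1.04 on the log2 scale in Bcl11bm/m (SE 0.13, interval 0.75 to 1.33, adjusted p = 0.0010 by limma), a 2.15-fold ratio of the means. It rose by 0.59 in cKO (SE 0.11, interval 0.35 to 0.83, adjusted p = 0.0081), a 1.55-fold ratio. Both calls held whichever library was left out, with differences of 0.94 to 1.10 and of 0.55 to 0.63. Between the mutants Syk was 0.45 higher in Bcl11bm/m (SE 0.11, adjusted p = 0.049), and this call was lost on leaving out any of the 7 libraries, with adjusted p of 0.062 to 0.12.

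Syk also gained in share on Zap70 within libraries. Its share of the summed FPKM of both kinases was 14.2% ± 2.21 in wild-type (SD, n = 5), 26.1% ± 0.545 in Bcl11bm/m (n = 3) and 19.3% ± 0.981 in cKO libraries (n = 4). The highest wild-type library stood at 15.9%, the lowest cKO library at 18.2% and the lowest Bcl11bm/m library at 25.6%. Zap70 still exceeded Syk by 2.75 to 2.91 times in Bcl11bm/m, 3.95 to 4.51 times in cKO and 5.29 to 8.60 times in wild-type libraries. These shares are a description and were not tested.

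The sequences before the starts of Syk and Zap70 are shown because the first gene was called against wild-type in both mutants and the second was not called. They are the 250 bases upstream of each start that RefSeq lists on GRCm38.p6, another build than that of the gene positions above, and are written along the gene. Capitals mark the Runx motif, ACCACA or ACCGCA on either strand (TGTGGT or TGCGGT when read on the other), since the study examined Runx sites beside Bcl11b.
Syk, chr13:52583187-52583436 (+): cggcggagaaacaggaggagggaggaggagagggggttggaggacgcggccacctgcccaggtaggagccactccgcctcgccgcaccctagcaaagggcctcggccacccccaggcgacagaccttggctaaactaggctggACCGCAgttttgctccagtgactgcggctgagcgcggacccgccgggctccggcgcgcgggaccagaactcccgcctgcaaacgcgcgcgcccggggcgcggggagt
Syk, chr13:52596632-52596881 (+): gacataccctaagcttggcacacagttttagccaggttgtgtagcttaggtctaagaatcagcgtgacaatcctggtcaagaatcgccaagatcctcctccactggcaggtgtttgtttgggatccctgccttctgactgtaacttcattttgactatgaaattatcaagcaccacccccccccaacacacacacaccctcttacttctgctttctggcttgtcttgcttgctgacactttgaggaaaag
Zap70, chr1:36761548-36761797 (+): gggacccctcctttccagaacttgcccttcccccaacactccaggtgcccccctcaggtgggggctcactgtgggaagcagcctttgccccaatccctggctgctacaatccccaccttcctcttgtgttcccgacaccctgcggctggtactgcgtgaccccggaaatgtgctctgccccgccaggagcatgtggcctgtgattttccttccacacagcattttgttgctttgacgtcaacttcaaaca
Zap70, chr1:36764265-36764514 (+): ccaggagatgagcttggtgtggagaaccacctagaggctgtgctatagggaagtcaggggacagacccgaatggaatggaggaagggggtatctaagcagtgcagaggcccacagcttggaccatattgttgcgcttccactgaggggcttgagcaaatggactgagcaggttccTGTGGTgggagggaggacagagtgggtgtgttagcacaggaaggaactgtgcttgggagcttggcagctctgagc
Zap70, chr1:36778734-36778983 (+): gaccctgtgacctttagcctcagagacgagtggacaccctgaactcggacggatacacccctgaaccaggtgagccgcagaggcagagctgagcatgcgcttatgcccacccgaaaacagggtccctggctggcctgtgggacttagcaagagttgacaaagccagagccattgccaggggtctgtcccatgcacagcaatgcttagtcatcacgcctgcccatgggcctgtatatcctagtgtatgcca
The motif occurred once before the first Syk start, 107 bases upstream of it to its first base, and once before the second Zap70 start, 75 bases upstream. The other 3 of these 5 sequences did not hold these letters. Of 32851 RefSeq starts, 18.6% had the motif in the same window. Over the 9 kinases, 7 had entries with 11 starts, all but Lyn and Blk, and 5 of the 11 windows held the motif. A match of letters is a description and not a binding site.

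Lyn, the Src family kinase of B cells and myeloid cells, showed the largest increase of the members in Bcl11bm/m. It lies at chr4:3605262-3740269 on the plus strand (NCBIM37). In wild-type libraries it was at 0.360, 2.28, 2.36, 0.675 and 0.253 FPKM, which stands for about 5 to 46 fragments. In Bcl11bm/m libraries it was at 19.9, 14.2 and 14.4 FPKM, or about 176 to 198 fragments. In cKO libraries it was at 2.15, 2.89, 6.62 and 2.65 FPKM. All Bcl11bm/m libraries were above all others, and the cKO range overlapped with wild-type in replicate 1. Lyn rose by 3.09 on the log2(FPKM + 1) scale in Bcl11bm/m against wild-type (SE 0.37, interval 2.24 to 3.95, adjusted p = 0.0010 by limma), a ratio of the means of 13.6. It was 1.98 higher in Bcl11bm/m than in cKO (SE 0.31, interval 1.26 to 2.70, adjusted p = 0.012). Both calls held whichever library was left out. cKO against wild-type gave 1.11 (SE 0.37, interval 0.28 to 1.94, adjusted p = 0.074), which did not pass, and 0.83 without replicate 3, the library with the highest value (adjusted p = 0.20). With all 3 groups in 1 fit the same difference passed (adjusted p = 0.044).

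Lyn took 0.146% ± 0.132 of the summed FPKM of the 7 Src family members in wild-type, 2.51% ± 0.420 in Bcl11bm/m and 0.513% ± 0.306 in cKO libraries. Lck made up 94.5% ± 0.803, 91.4% ± 0.267 and 92.5% ± 1.52 of the same sum. Fyn exceeded Lyn by 15.9 to 161 times in wild-type libraries but by 1.40 to 2.06 times in Bcl11bm/m libraries, and by 5.13 to 17.0 times in cKO libraries. The family as a whole therefore remained dominated by Lck in all 12 libraries.

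**Figure D3:**
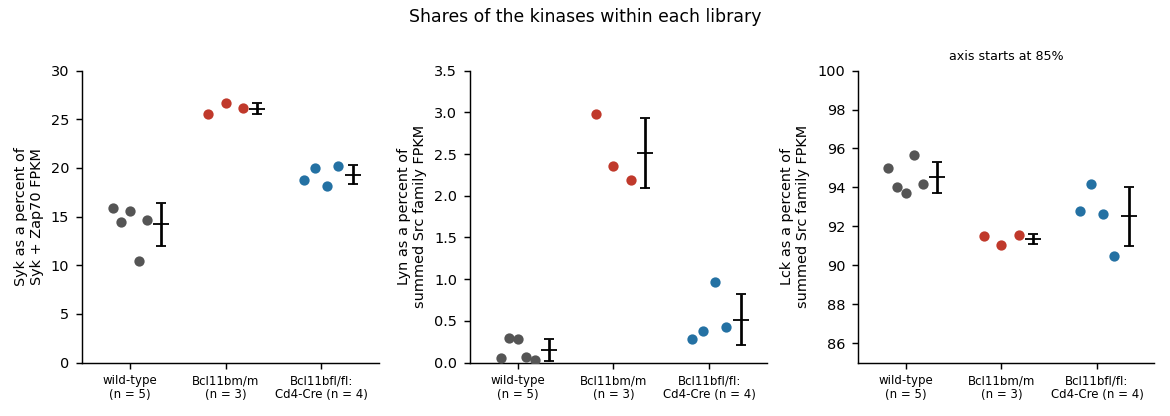
Share of Syk in the summed FPKM of Syk and Zap70, and shares of Lyn and Lck in the summed FPKM of the 7 Src family members, 1 point per library with group mean and SD. The axis of Lck starts at 85%. Syk shares run from 10.4 to 15.9% in wild-type and from 25.6 to 26.7% in Bcl11bm/m libraries.

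Because Lyn is a kinase of B cells and myeloid cells, markers of these cells were set beside it. The 12 B cell markers summed to 72.2 to 131 FPKM in wild-type, 124 to 174.5 in Bcl11bm/m and 98.4 to 138.5 in cKO libraries. The sums came mostly from Cd37 (55.2 to 110 FPKM in wild-type, 112 to 133 FPKM in Bcl11bm/m). Cd79b was at 21.7, 5.85 and 7.60 FPKM in Bcl11bm/m against 12.4 to 20.7 FPKM in wild-type libraries. Of the 6 tested markers, 0 were called in Bcl11bm/m by limma (3 higher and 1 lower at an unadjusted p under 0.05). The 13 markers of monocytes, macrophages and granulocytes summed to 11.1 to 15.1 FPKM in wild-type, 17.1 to 57.7 in Bcl11bm/m and 4.89 to 11.7 in cKO libraries. Of the 6 tested, 4 were higher and 1 lower in Bcl11bm/m at an unadjusted p under 0.05. The share of all features past that unadjusted threshold was not counted, so neither this count nor that of the B cell markers can be set against a background. Mpeg1 and Fcgr3 were past the adjusted threshold, but Mpeg1 passed the filter on low values only through the Bcl11bm/m libraries, and Fcgr3 only through these together with cKO replicate 3 (6.01 FPKM), so both calls are a description. Lyz2 and Mpeg1 were called lower in cKO. S100a8, S100a9, Mpo and Elane were listed at 0 in all 3 Bcl11bm/m libraries, and S100a8, S100a9 and Elane in every wild-type library as well. Lyn and several of these markers were highest in replicate 1 of Bcl11bm/m. That library had Cd79a at 10.7, Ms4a1 at 1.97 and Lyz2 at 37.7 FPKM. Replicate 3 had Cd79a at 0.210 FPKM, Ms4a1 and Pax5 at 0 and Lyz2 at 5.53 FPKM, within the wild-type range of 2.19 to 7.05, and its Lyn level was 14.4 FPKM. In replicate 3, 6 of the 13 myeloid markers were above every wild-type library: Mpeg1 was at 1.49 FPKM (wild-type up to 1.21), Fcgr3 at 1.23 (up to 0.654), Emr1 at 0.698 (up to 0.324), Cd68 at 5.28 (up to 4.46), Csf1r at 0.579 (up to 0.44) and Csf3r at 1.53 (up to 1.35). The share of all features for which this 1 library lay above every wild-type library was not counted, so the 6 are a description. Itgam went the other way, at 0.571 to 0.791 FPKM in Bcl11bm/m against 0.760 to 4.63 FPKM in wild-type libraries, and Cd14 was listed at 0 in replicate 3. The 10 dendritic cell markers summed to 9.74 to 29.2 FPKM in wild-type, 28.8 to 185 in Bcl11bm/m and 12.7 to 49.7 in cKO libraries, and Flt3 was 2.26 higher in Bcl11bm/m than in wild-type on the log2(FPKM + 1) scale (SE 0.18). Flt3 too passed the filter only through Bcl11bm/m, so that its value is a description. The part of such cells in the level of Lyn was not tested beyond these values.

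Markers of later and of other T cells also moved with the groups. The 12 pre-selection markers summed to 5365 to 7132 FPKM in wild-type, 3876 to 4376 in Bcl11bm/m and 3603 to 5857 in cKO libraries, and 7 of 12 were called lower in Bcl11bm/m and 2 of 12 in cKO, beside 7.39% and 9.86% of all features called lower in these comparisons. The 10 post-selection markers summed to 103 to 167, 277 to 440 and 87.1 to 251 FPKM in the same order, and 6 of 9 tested were called higher and 1 lower in Bcl11bm/m, and 5 higher and 1 lower in cKO, beside 9.92% and 4.65% of all features called higher. Of the 10, 5 to 7 were at 1 FPKM or more in each wild-type library, against 8 or 9 in the mutant libraries. Some of the 9 may thus have passed the filter on low values only through the mutants, and these counts are in part a description. The 10 NK markers summed to 18.6 to 71.2, 216 to 417 and 67.8 to 197 FPKM, mostly through Gzma, with Ncr1 at 0 in all wild-type and cKO libraries and Klrc1 at 0 in all wild-type and Bcl11bm/m libraries. Of the 3 tested NK markers, Klrb1c, Gzma and Prf1, all were called higher in Bcl11bm/m, and in cKO Gzma was called higher and Prf1 lower. In each wild-type library 2 of the 10 NK markers were at 1 FPKM or more, against 3 in each Bcl11bm/m library. The calls of the 3 as a set are therefore in part a description. The part of any of these cells in the kinase levels was not tested.

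Blk, a Src family kinase of B cells that some gamma-delta T cells also use, was nearly absent from wild-type cells and uneven in the mutants. It lies at chr14:63991674-64036024 on the minus strand (NCBIM37). Its single annotated transcript allowed its FPKM to be read as fragments: 1, 2, 1, 0 and 2 fragments in the wild-type libraries, 1, 4 and 4 in Bcl11bm/m, and 1032, 22, 21 and 104 in cKO. In FPKM these were 0.063, 0.142, 0.110, 0 and 0.145 in wild-type, 0.161, 0.427 and 0.416 in Bcl11bm/m, and 9.91, 0.881, 0.526 and 3.40 in cKO libraries. All 4 cKO libraries were above all others, by widely different amounts. Blk passed the filter only through that group, so a difference had to appear there. As a description, it was 1.65 higher on the log2(FPKM + 1) scale (SE 0.49, interval 0.56 to 2.74), 1.09 higher without cKO replicate 1 and 1.53 higher without cKO replicate 4. Its call was lost for 7 of the 9 libraries when each was left out in turn, with adjusted p of 0.058 to 0.12 by limma. In the limma fit without a filter, which Blk enters whatever its level, the adjusted p was 0.095.

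Per fragment sequenced, Blk was 61.2 times as frequent in cKO as in wild-type libraries (1179 against 6 fragments, 95% exact interval 28.02 to 167) and 16.0 times without replicate 1 (147 against 6 fragments, interval 7.16 to 44.2). In Bcl11bm/m libraries it was 3.69 times as frequent as in wild-type (9 against 6 fragments, interval 1.17 to 12.6). These intervals cover counting error only and not the spread between libraries. On the log2 scale Bcl11bm/m differed from wild-type by 0.28 (SE 0.09, adjusted p = 0.072) and from cKO by -1.37 (SE 0.64, adjusted p = 0.21), and neither passed. The former passed without Bcl11bm/m replicate 1 (0.38, adjusted p = 0.023) and with library quality weights (0.31, adjusted p = 0.0096).

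Blk was set beside genes of gamma-delta T cells and B cells. Of the tested features, the 3 whose log2(FPKM + 1) was most like it over the 12 libraries were Sox13 (Pearson r = 0.98), Maf (0.92) and Pisd (0.92). Sox13 and Maf, which are transcription factors of a gamma-delta T cell subset, were thus picked for their likeness to Blk. These correlations rest largely on replicates 1 and 4 of cKO, and no p is given. Replicates 1 and 4 also stood apart from replicates 2 and 3 in other genes, named after their values were seen. Ptcra was at 67.0 and 64.7 FPKM against 27.0 and 8.97 FPKM, and Nr4a1 at 2.65 and 1.39 FPKM against 16.6 and 15.2 FPKM. Sox13 was at 13.9, 1.15, 0.478 and 3.29 FPKM in the cKO libraries, in the same order as Blk, and at 0 to 0.452 FPKM in the wild-type and 0.218 to 0.284 FPKM in the Bcl11bm/m libraries. The 7 gamma-delta markers of the table, Blk included, summed to 0.506 to 1.34 FPKM in wild-type, 112 to 153 in Bcl11bm/m and 4.88 to 82.4 in cKO libraries. The high sum in Bcl11bm/m came from Cd163l1 (36.3 to 60.8 FPKM) and 5830411N06Rik (48.3 to 91.2 FPKM), while Blk and Sox13 stayed low there. The B cell marker Cd79a was at 3.92, 1.78, 0.911 and 1.38 FPKM in the cKO libraries and at 0.217 to 0.446 FPKM in wild-type. All 4 cKO libraries were thus above wild-type for Cd79a too (1.02, SE 0.25, adjusted p = 0.024 by limma), with replicate 1 highest and replicate 3 lowest as for Blk, while replicates 2 and 4 changed places. Of the 6 tested B cell markers, 1 was called in cKO, beside 4.65% of all features called higher. Cd79b, the partner of Cd79a, overlapped with wild-type, at 9.78 to 21.2 FPKM in cKO against 12.4 to 20.7 FPKM. The part of gamma-delta T cells or B cells in the level of Blk was not tested.

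**Figure D4:**
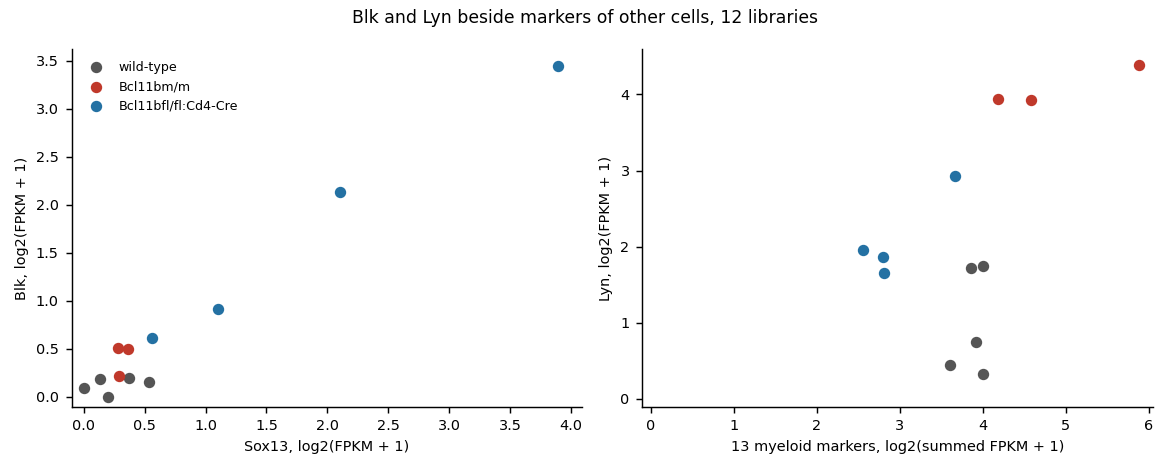
Left, Blk against Sox13, both as log2(FPKM + 1), in the 12 libraries. Right, Lyn as log2(FPKM + 1) against the log2 of the summed FPKM + 1 of 13 myeloid markers. Blk and Sox13 are highest together in 2 of the 4 cKO libraries, and the Bcl11bm/m libraries have the highest Lyn levels and the 3 highest marker sums.

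Fgr, a Src family kinase of granulocytes and macrophages, lies at chr4:132530010-132557825 on the plus strand (NCBIM37). It was at 2.47, 7.15, 7.34, 4.90 and 4.35 FPKM in wild-type, at 8.85, 9.65 and 11.5 FPKM in Bcl11bm/m and at 6.07, 5.10, 9.47 and 11.98 FPKM in cKO libraries. The Bcl11bm/m libraries were above all wild-type libraries, and those of cKO overlapped with both. The differences from wild-type were 0.88 in Bcl11bm/m (SE 0.29, adjusted p = 0.073) and 0.56 in cKO (SE 0.30, adjusted p = 0.24), and neither passed. The former passed with median-ratio scaling (0.87, adjusted p = 0.045) and with library quality weights (0.67, adjusted p = 0.033).

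Src and Yes1 were low in every group. Src ranged from 0.039 to 0.266 FPKM in wild-type, 0 to 0.386 in Bcl11bm/m and 0.050 to 0.202 in cKO libraries, and Yes1 from 0.062 to 0.363, 0.060 to 0.217 and 0 to 0.245. In the wild-type and Bcl11bm/m libraries this stood for about 0 to 6 fragments of Src and 1 to 10 of Yes1, and in the deeper cKO libraries for about 32, 2, 13 and 10 fragments of Src and 23, 11, 0 and 2 of Yes1. Both lay outside the fit and were tested by exact two-sided permutation. The exact p against wild-type was 0.98 for Src and 0.84 for Yes1 in Bcl11bm/m, and 0.48 and 0.54 in cKO. Without wild-type replicate 1, Src in cKO differed from wild-type by -0.085 on the log2(FPKM + 1) scale (exact p = 0.029).

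The remaining features most like a called member over the 12 libraries were named by their correlation, as a description only. For Lyn these were Hip1r (Pearson r = 0.98), Anxa6 (0.97) and Pde3b (0.97), for Syk they were Rptor (0.98), Xrcc6 (0.95) and Hecw2 (0.95), and for Fyn they were Fam125b (0.97), Lsp1 (0.93) and Mzt2 (0.92). All 12 points share the contrast between groups. Hip1r, an endocytic adaptor, was at 10.0 to 13.3 FPKM in Bcl11bm/m, 2.65 to 4.44 in cKO and 1.14 to 2.35 in wild-type libraries, the same order as Lyn. Rptor, a subunit of the mTORC1 complex, was at 27.3 to 28.7, 19.6 to 24.6 and 14.0 to 18.5 FPKM, the same order as Syk.

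The genes around the kinases were then described by lists, whose counts stand beside 17.3% of all features called in Bcl11bm/m (9.92% higher, 7.39% lower) and 14.5% in cKO (4.65% higher, 9.86% lower). The cKO counts of these lists, at 1 of 9, 3 of 18, 3 of 23, 1 of 7 and 1 of 8 genes called, were near that background. Of 17 related cytoplasmic tyrosine kinases, 9 were tested, 2 rose and 1 fell in Bcl11bm/m (median difference 0.21, all features -0.02). Fes, a kinase of myeloid cells and 1 of the 2, was at 0.189 to 0.281 FPKM in wild-type, 11.5 to 14.7 FPKM in Bcl11bm/m and 0.462 to 1.76 FPKM in cKO libraries. It passed the filter only through Bcl11bm/m, so a difference had to appear there, and its log2 differences of 3.55 from wild-type (SE 0.11) and 3.03 from cKO (SE 0.25) are a description. Matk, a kinase that phosphorylates the inhibitory tail of Src family members, rose by 0.95 in Bcl11bm/m (SE 0.17, adjusted p = 0.0063) and by 1.44 in cKO (SE 0.20, adjusted p = 0.0042), the only call of 9 there. Ptk2b, which acts downstream of Fyn, fell by 0.49 in Bcl11bm/m (SE 0.11, adjusted p = 0.019).

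Of 19 regulators of these kinases, 18 were tested, and 5 rose and 1 fell in Bcl11bm/m (median 0.17). Unc119, an adaptor that activates Src family kinases, rose by 2.96 in Bcl11bm/m (SE 0.49, adjusted p = 0.0050) and by 2.595 in cKO (SE 0.51, adjusted p = 0.011), from 0.915 to 6.98 FPKM in wild-type to 29.0 to 38.0 and 11.6 to 48.5 FPKM. The phosphatases Ptprc, which removes the inhibitory phosphate of Lck, and Ptpn2 rose by 0.43 (adjusted p = 0.036) and 0.52 (adjusted p = 0.046) in Bcl11bm/m, and Ubash3b rose by 0.77 (adjusted p = 0.027). Pag1, the membrane anchor of the inhibitory kinase Csk, fell by 0.63 in Bcl11bm/m (SE 0.16, adjusted p = 0.031) and by 0.73 in cKO (SE 0.18, adjusted p = 0.025). In cKO 2 rose and 1 fell (median 0.25, all features -0.09). The calls of that group named here and below were chosen after their values were seen: beside Unc119 it was Ubash3a that rose (0.71, adjusted p = 0.0055).

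All 23 T cell receptor partners and substrates were tested, and 4 rose and 6 fell in Bcl11bm/m (median -0.29). Plcg1, the phospholipase that Zap70 activates through adaptors, rose by 1.004 in Bcl11bm/m (SE 0.11, adjusted p = 0.00055) and by 0.63 in cKO (SE 0.13, adjusted p = 0.013). The coreceptor Cd4, which carries Lck, fell by 0.99 in Bcl11bm/m (SE 0.14, adjusted p = 0.0021), and the inhibitory receptors Cd5 and Cd6 fell by 1.37 (SE 0.28, adjusted p = 0.012) and 0.97 (SE 0.19, adjusted p = 0.010). Cd2, an adhesion receptor, rose by 0.71 (SE 0.16, adjusted p = 0.017). In cKO 1 rose and 2 fell (median -0.34), and the latter were the costimulator Cd28 (-1.08, adjusted p = 0.0065) and Themis (-0.47, adjusted p = 0.035).

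Of 16 B cell receptor partners and substrates, 7 were tested, and 2 rose in Bcl11bm/m (median 0.59). Cd72, an inhibitory receptor of B cells, was at 0.129 to 2.02 FPKM in wild-type and 15.6 to 39.6 FPKM in Bcl11bm/m libraries and rose by 3.58 (SE 0.39, adjusted p = 0.00061). Plcg2, the phospholipase downstream of Syk in B cells, rose by 1.40 (SE 0.16, adjusted p = 0.00082). In cKO, Cd79a alone rose (1.02, SE 0.25, adjusted p = 0.024), a chain of the B cell receptor that carries an ITAM motif. Of 15 myeloid and NK ITAM receptors and adaptors, 8 were tested, and 3 rose and 1 fell in Bcl11bm/m (median 0.04). The ITAM adaptors Fcer1g and Tyrobp, which recruit Syk, rose by 2.86 (SE 0.49, adjusted p = 0.0057) and 2.71 (SE 0.33, adjusted p = 0.0011), and Card9, an adaptor downstream of Syk, fell by 2.91 (SE 0.34, adjusted p = 0.00090). The third gene counted as higher, Fcgr3, was 1.08 higher (SE 0.27), given as a description since it passed the filter only through Bcl11bm/m together with cKO replicate 3. Fcer1g was at 8.83 to 40.2 FPKM in Bcl11bm/m and 1.201 to 42.2 FPKM in cKO libraries, against 0.632 to 2.76 FPKM in wild-type. Of these genes Sh3bp2 alone was called in cKO and fell (-0.88, adjusted p = 0.039; median -0.15). Between the mutants, Cd72 (2.85, adjusted p = 0.011) and Tyrobp (2.85, adjusted p = 0.025) were higher and Card9 was lower (-2.12, adjusted p = 0.019) in Bcl11bm/m, as named after their values were seen.

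**Figure D5:**
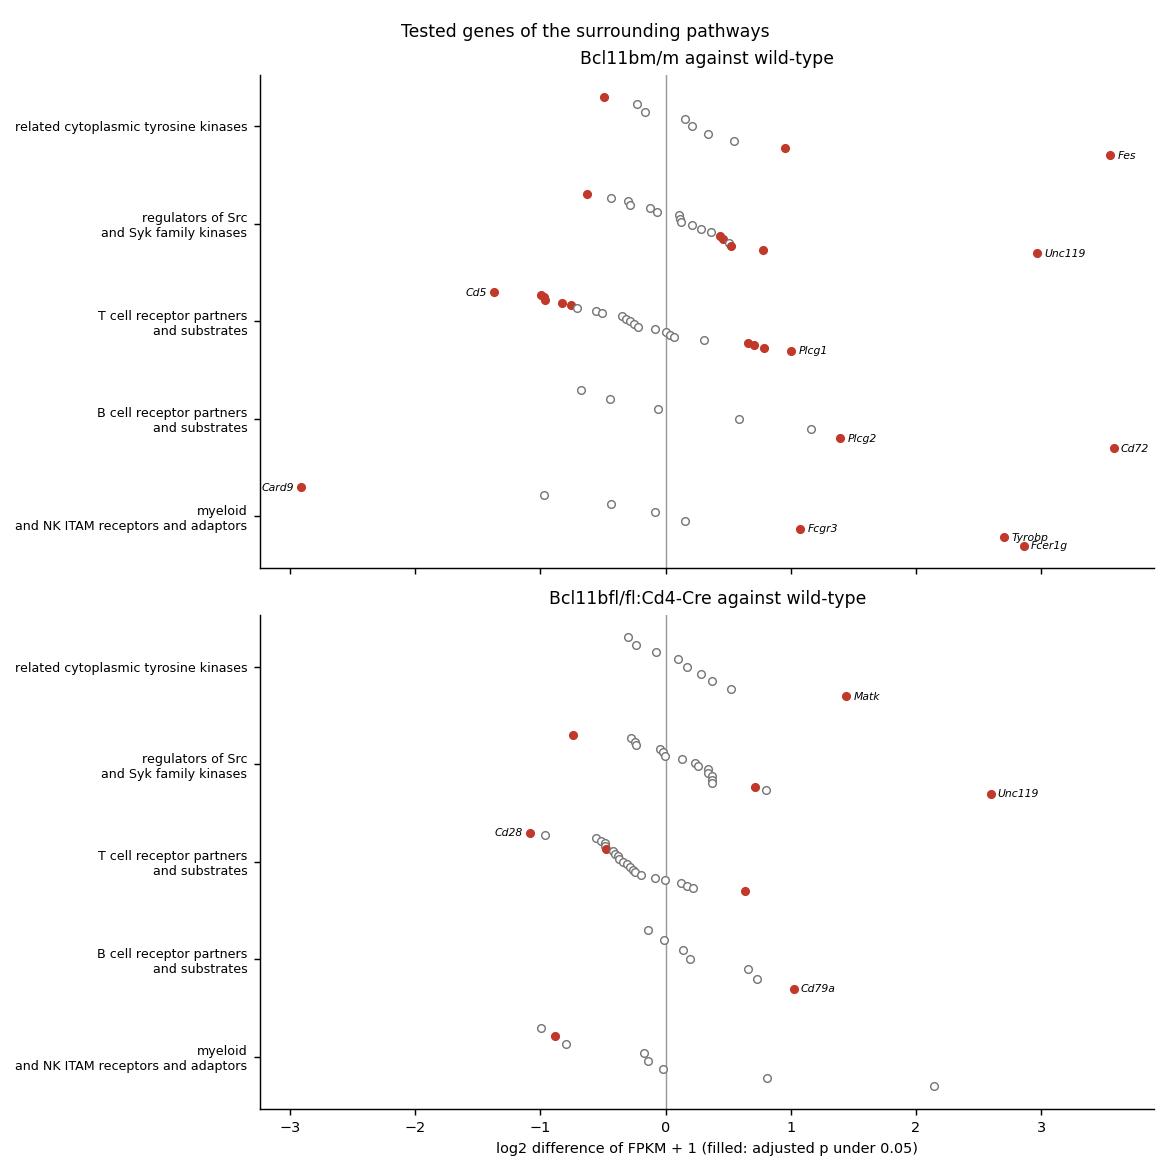
Difference from wild-type in mean log2(FPKM + 1) for the tested genes of 5 lists around the kinases, Bcl11bm/m above and cKO below, 1 point per gene. Filled red points have an adjusted p under 0.05 by limma, and those beyond 1 are named. Fes, Cd72, Unc119, Fcer1g and Tyrobp lie farthest to the right in Bcl11bm/m, where Fes passed the filter on low values only through that group and Fcgr3 only through it together with cKO replicate 3.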

How the data were processed

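RNA-seq libraries of sorted pre-selection thymocytes were used (5 wild-type, 3 Bcl11bm/m, 4 Bcl11bfl/fl:Cd4-Cre). The authors mapped reads with TopHat2 and computed the deposited FPKM values with Cufflinks 2.1.1 on mm9, per the submitters' processing notes. The labels' extraction text and the study's methods describe different cell populations and library kits, so the cells, the kit and the use of strand are in part uncertain. Positions come from GENCODE vM1 on NCBIM37. Features averaging 1 FPKM or more across the 12 libraries were compared as log2(FPKM + 1) with limma 3.58.1 in R 4.3.3 (trend, 2 groups per fit, two-sided, Benjamini-Hochberg over 10780 features, threshold 0.05). A fold on this scale understates changes of low genes. Src and Yes1 were tested by exact permutation. Members and lists were chosen with earlier results of these data known. Named were all members, up to 5 called genes per list by p in Bcl11bm/m, and for called members the 3 most correlated features. Depth was estimated: 63.5 to 73.2% of low values in genes with 1 transcript lay within 0.1 of whole multiples of a step (20% if spread evenly), and the step gave the depth. These estimates were used for fragment numbers and for the exact counting intervals of Blk only. Figures and sums were made with Python 3.11.15.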

Additional observations from a re-analysis of the deposited data

Results flagged for a closer look

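The values of each member were checked for libraries that stand apart from their group, by the gap to the nearest other library over the range of the group, in the wild-type and cKO (Bcl11bfl/fl:Cd4-Cre) groups (18 groups of values, of which chance marks about 1 in 20). There were 4 such values. Lyn was at 6.62 FPKM in cKO replicate 3, apart from the other 3 libraries at 2.15 to 2.89 FPKM. That library also had the highest cKO sums of post-selection (250.9 FPKM), NK (197.4), B cell (138.5) and myeloid (11.7) markers. It had the lowest sums of pre-selection (3603 FPKM), dendritic cell (12.7) and gamma-delta (4.88) markers. Their part in its Lyn level was not tested. Src was low in wild-type replicate 1 (0.039 FPKM) and in cKO replicate 2 (0.050 FPKM), which stand for about 1 and 2 fragments. Yes1 was high in wild-type replicate 2 (0.363 FPKM), or about 10 fragments.

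The mutants differed from each other in the direct test by limma for Lyn (1.98 on the log2 scale, higher in 3 of 3 Bcl11bm/m libraries than in all 4 cKO libraries, adjusted p = 0.012) and Syk (0.45, likewise, adjusted p = 0.049).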

How the results depend on the processing

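Over 27 member differences and their alternatives, 342 of 405 values kept direction and side of the threshold, 30 lost and 10 gained a call, and 23 changed sign. The increases of Lyn and Syk in Bcl11bm/m and of Syk in cKO kept their calls under all alternatives run except, for the former 2, the replicate block. Syk in cKO was at the threshold in that block fit, at 0.63 (adjusted p = 0.04988 by limma). Lyn, with means of 1.19 and 3.58 FPKM in wild-type and cKO, passed the filter of 5 FPKM only through Bcl11bm/m, so its calls there are a description. Deviations of same-numbered libraries from their group means correlated weakly, at -0.21 to 0.15. With 3 to 5 libraries per group, this cannot settle whether the replicate numbers pair the libraries. With the number as a block, 283, 456 and 30 features were called in place of 1866, 1564 and 1102 (Bcl11bm/m and cKO against wild-type, and directly) and 0, 1 and 0 members. In that fit Lyn was at 2.78 (adjusted p = 0.065), Syk at 1.06 (0.079), Fyn at -0.36 (0.27) and Zap70 at 0.16 in Bcl11bm/m, Blk at 1.67 (0.10) in cKO, and Lyn and Syk at 1.90 (0.12) and 0.45 (0.23) directly. Library quality weights called 3604, 3176 and 2173 features, and 6 members in Bcl11bm/m. A mean of at least 5 FPKM called 1189 features in Bcl11bm/m, 656 directly, and 1 member both in cKO and directly, since it drops Blk and leaves Syk at an adjusted p of 0.056 directly. Without a filter 1 member was likewise called in cKO and directly, where Blk was at 1.65 (adjusted p = 0.095) and Syk at 0.45 (0.054). Median-ratio scaling called 5 members in Bcl11bm/m, with Syk directly at 0.34 (0.066), Fyn in cKO at 0.055 and Src in Bcl11bm/m at 0.0063. It moved the median of all features from -0.09 to 0.0045 in cKO and from 0.09 to -0.01 directly, and the share of calls that were higher from 32.0 to 46.3% and from 74.6 to 51.6%. With quantile normalization these shares were 42.7 and 52.2%, Fyn in cKO was at 0.062, Zap70 in Bcl11bm/m at 0.10 and Src directly at -0.0060. A pseudocount of 0.1 gave -0.038 for Src directly. The cause of these changes was not tested.

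Leaving out each library gave 1021 to 2349 features called in Bcl11bm/m, 700 to 2678 in cKO and 313 to 1121 directly. It gave 2 to 3, 1 to 2 and 1 members. The value for cKO was 2678 without wild-type replicate 1 and 700 without cKO replicate 1. Ranges were -0.44 to -0.36 for Fyn and -0.13 to 0.10 for Zap70 in Bcl11bm/m, 1.09 to 2.04 for Blk in cKO, -0.12 to 0.12, -0.085 to 0.011 and -0.082 to 0.15 for Src in the 3 comparisons, and -0.089 to 0.033 and -0.026 to 0.094 for Yes1 in Bcl11bm/m and directly. Depth limits Blk, Src and Yes1, which rest on 0 to 10 fragments per library in wild-type and Bcl11bm/m, and group and depth cannot be told apart, since the cKO libraries were the deepest.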
